A study of Saccharomyces cerevisiae with 18 samples.

Results

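The genes of ergosterol and mevalonate synthesis were followed through ribosome profiling of 4 strains of budding yeast, a method that sequences the mRNA fragments (footprints) protected by translating ribosomes. Members were chosen by name, not by their values: 20 genes whose symbol is ERG followed by a number, and 11 added by symbol (HMG1, HMG2, MVD1, IDI1, NCP1, CYB5, HES1, UPC2, ECM22, ARE1 and ARE2). All 31 members were listed in both deposited tables, out of 6085 genes in the monosome table, 5767 in the disome table and 5693 in both. Monosome footprints come from single ribosomes, whereas disome footprints come from neighbouring ribosomes so close together that nuclease cannot cut between them. The strains were wild type (BY4741, MATa his3∆1 leu2∆0 ura3∆0 met15∆0), hel2∆ (hel2∆::LEU2), ncs2∆elp6∆ (ncs2∆::HIS3MX elp6∆::URA3) and ncs2∆elp6∆hel2∆, which carries all 3 deletions. The labels give MATa his3∆1 leu2∆0 ura3∆0 for all strains, and each deletion is marked by a nutritional gene. All were grown to mid-exponential phase in rich medium. Ncs2 and Elp6 are needed to modify the wobble uridine of some tRNAs. Collided ribosomes are recognised by Hel2, a ubiquitin ligase. There were 10 monosome libraries, 3 each of wild type and ncs2∆elp6∆ and 2 each of the strains without HEL2, and 8 disome libraries, 2 per strain.

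Ergosterol is the sterol of fungal membranes and takes the place that cholesterol has in animals. Its synthesis begins with acetyl-CoA, passes through mevalonate to farnesyl diphosphate, and continues through squalene and lanosterol to the late steps, which remove methyl groups and place the double bonds. Several of these steps need molecular oxygen and electrons handed on by Ncp1 or Cyb5. The transcription factors Upc2 and Ecm22 activate the ERG genes when sterol is low, and Are1 and Are2 store surplus sterol as esters in lipid droplets.

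Total counts ran from 2381991 to 24884873 in monosome libraries and from 845707 to 2521397 in disome libraries, so the disome values are the less precise ones. Monosome depth split by HEL2, with at most 4352295 counts per library in strains without it and at least 11702547 in strains with it. Differences on loss of HEL2 therefore coincide with a difference in depth, and any preparation difference that goes with it cannot be told apart. After thinning to equal depth, 13 of 13 members kept their call in hel2∆ against wild type and 9 of 10 in ncs2∆elp6∆hel2∆ against ncs2∆elp6∆. HEL2, NCS2 and ELP6 were at a normalised count of 2.25 CPM (the count scaled to library size) or below in every monosome library of the strains that lack them and at 17.5 or above in those that do not, as the strain labels imply. The 5 genes of a-cells (STE2, STE6, BAR1, MFA1 and MFA2) had at least 231 counts in every monosome library, and the alpha-factor genes MF(ALPHA)1 and MF(ALPHA)2 at most 4. The other alpha-cell genes listed, STE3 and SAG1, had enough counts to be tested in ncs2∆elp6∆ against wild type and were called in opposite directions. Wild-type monosome replicate 3 stood apart from the other wild-type libraries in several members, and the results that it moved most are also given without it. Scaling between libraries bears on the directions given here. The 100 most abundant genes took 44.3 to 45.7% of the counts in wild-type monosome libraries but 36.4 to 41.2% in the deletion strains. With TMM scaling the median gene lay at 0.02 (log2) in ncs2∆elp6∆ against wild type and at 0.03 in hel2∆ against wild type, whereas scaling to library totals put both medians at 0.27. Changes are therefore changes relative to the typical gene, and CPM values are on the TMM scale. mRNA abundance was not used here, so fewer footprints on a gene can mean less mRNA or fewer ribosomes on each mRNA, and these cannot be told apart.

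In wild-type cells the members together took 0.738 to 0.752% of monosome counts, and footprint density per kilobase of coding length varied widely among them. ERG6, which encodes the sterol methyltransferase that separates fungal from animal sterols, had the highest mean density at 683 ± 35.8 CPM per kb (SD, n = 3). ERG25, the sterol methyl oxidase (616 ± 54.8), ERG1, squalene epoxidase (600.0 ± 17.97), ERG10, acetoacetyl-CoA thiolase (590.5 ± 65.5), and ERG3, a sterol desaturase (569.8 ± 47.6), came next in CPM per kb. The order of these 4 is not resolved, since neighbouring means lay within 1 SD of each other. In wild-type replicate 3 ERG25 was above ERG6 (661 against 642 CPM per kb), so the first place is not firm either. At the other end stood the transcription factors and a few enzymes. HES1, an oxysterol-binding protein homologue that transfers sterols, had 1.88 ± 1.23 CPM per kb, ECM22 12.3 ± 1.41, UPC2 19.2 ± 2.56 and ERG7, lanosterol synthase, 21.4 ± 0.77. The HMG-CoA reductase isozymes catalyse the rate-limiting step of the mevalonate branch. They were also low among the members at 25.7 ± 1.97 (HMG1) and 24.0 ± 1.42 CPM per kb (HMG2), ranks 26 and 27. Among all genes they lay near the middle, at percentiles 50.3 and 48.7 of wild-type density.

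The first question was how the members changed when the tRNA modifications were lost. Compared with wild type, ncs2∆elp6∆ had fewer monosome footprints on 19 of 31 members, while 6 rose and 6 were not called at an adjusted p under 0.05 (edgeR quasi-likelihood F test, Benjamini-Hochberg over all 5281 genes tested). Among all genes, 26.4% were called lower and 26.6% higher. The median change of the members was -0.30 (log2), beside 0.02 for all genes. The split depends on scaling, because with library totals 10 members were called higher and 10 lower, around a median gene at 0.27. The share of all genes called in that refit is not given, so these counts show only that the calls depend on scaling. ERG28, HMG1, HES1, UPC2, ERG3, CYB5, ERG20, ERG7, ERG4 and ERG1 were lower, and ARE2, ERG29, ERG9, IDI1, MVD1 and ERG12 higher, under both scalings.

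ERG28 had the largest fall among the enzymes and their partners. It encodes a small membrane protein that holds the sterol demethylation enzymes together and lies on the minus strand of chromosome V at bases 237570 to 238016 (R64 assembly). Its monosome level was 32.1, 37.3 and 43.1 CPM in the 3 wild-type libraries and 39.4 and 47.4 CPM in hel2∆, but 14.6, 15.5 and 13.4 CPM in ncs2∆elp6∆ and 15.3 and 13.2 CPM in ncs2∆elp6∆hel2∆. No library without NCS2 and ELP6 reached the lowest library that has them. ERG28 was named for its large change, so this separation is no added evidence. The change was -1.38 ± 0.12 (log2 ± SE, 2.60-fold, edgeR adjusted p = 1.14e-07) in ncs2∆elp6∆ against wild type and -1.64 ± 0.18 (3.11-fold, edgeR adjusted p = 1.82e-11) in ncs2∆elp6∆hel2∆ against hel2∆, comparisons that share no library.

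**Figure D1:**
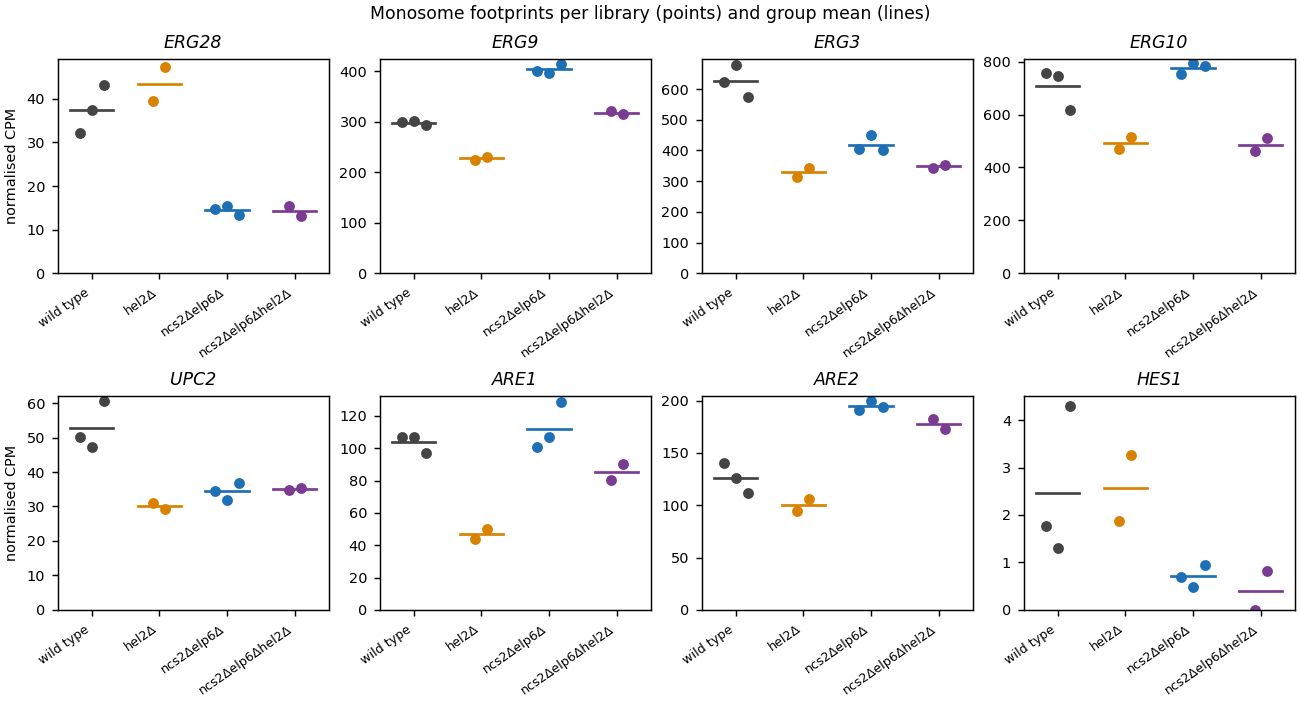
Normalised CPM of monosome footprints (linear axis from 0) for 8 members in the 10 libraries; points are libraries and lines are group means. ERG28 was at 13.2 to 15.5 CPM in the 5 libraries lacking NCS2 and ELP6 and at 32.1 CPM or above in the others, and ARE1 was at 43.9 and 50.4 CPM in hel2∆ against 80.2 CPM or above elsewhere.

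The mevalonate branch moved in both directions within a few steps. ERG13, HMG-CoA synthase (-0.27 ± 0.07), both HMG-CoA reductases, ERG8, phosphomevalonate kinase (-0.39 ± 0.10), and ERG20, farnesyl diphosphate synthase (-0.55 ± 0.07), fell in ncs2∆elp6∆ against wild type on the log2 scale, 5 of 9 genes. MVD1, mevalonate diphosphate decarboxylase (0.30 ± 0.08), IDI1, isopentenyl diphosphate isomerase (0.37 ± 0.08), and ERG12, mevalonate kinase (0.21 ± 0.09), rose, while ERG10 was not called (0.13 ± 0.08). ERG12 lost its call with DESeq2, with relative log expression (RLE) size factors and without any of 4 single libraries, and the lower calls of ERG13, ERG8 and HMG2 were absent with library totals. HMG1 stood at 84.6, 85.1 and 74.0 CPM in wild type, 102 and 90.4 in hel2∆, 56.1, 57.2 and 49.995 in ncs2∆elp6∆, and 62.7 and 64.8 in ncs2∆elp6∆hel2∆. HMG2 stood at 70.2, 76.5 and 78.8 CPM in wild type, 86.3 and 88.5 in hel2∆, 56.2, 59.0 and 54.3 in ncs2∆elp6∆, and 65.6 and 49.5 in ncs2∆elp6∆hel2∆. For both isozymes every library without NCS2 and ELP6 was below every library that has them. Their changes in ncs2∆elp6∆ against wild type were -0.58 ± 0.08 for HMG1 and -0.42 ± 0.08 for HMG2 (edgeR adjusted p = 3.06e-05 and 3.29e-04). In ncs2∆elp6∆hel2∆ against hel2∆ they were -0.57 ± 0.11 and -0.64 ± 0.12 (edgeR adjusted p = 2.63e-05 and 2.11e-05).

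At the squalene steps the first enzyme and the next ones differed in direction. ERG9, squalene synthase, commits farnesyl diphosphate to sterols and lies on chromosome VIII at bases 484845 to 486179. It had 299, 302 and 293 CPM in wild type and 399.5, 397 and 414 CPM in ncs2∆elp6∆ (0.43 ± 0.07, 1.35-fold, edgeR adjusted p = 5.67e-05). Levels of ERG9 in hel2∆ were lower than in any other strain at 224 and 231 CPM, beside 321 and 315 CPM in ncs2∆elp6∆hel2∆ (0.49 ± 0.08, log2, against hel2∆). ERG1 and ERG7 fell by 0.44 and 0.49 on the log2 scale against wild type and by 0.41 and 0.51 against hel2∆.

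Late sterol steps were mostly lower in ncs2∆elp6∆ than in wild type (9 of 12 genes), with ERG29 the only one that rose and ERG5 and ERG26 not called. ERG29, whose product acts with the sterol methyl oxidase Erg25, had 27.7, 24.5 and 25.6 CPM in wild type and 39.5, 41.6 and 34.9 CPM in ncs2∆elp6∆ (0.57 ± 0.10, log2). ERG11 encodes the cytochrome P450 that removes the first methyl group of lanosterol and is the target of azole antifungals. Its level was 638, 573 and 569.6 CPM in wild type, 503 and 546 in hel2∆, 466, 463 and 443 in ncs2∆elp6∆, and 415 and 432 in ncs2∆elp6∆hel2∆. Thus the lowest ERG11 libraries of the strains with NCS2 and ELP6 lay above the highest of those without (-0.39 ± 0.07 and -0.30 ± 0.07, log2, in the respective comparisons). With library totals the fall of ERG11 in ncs2∆elp6∆ was no longer called. ERG2, the sterol isomerase, is the one called member whose sign turned with library totals.

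**Figure D2:**
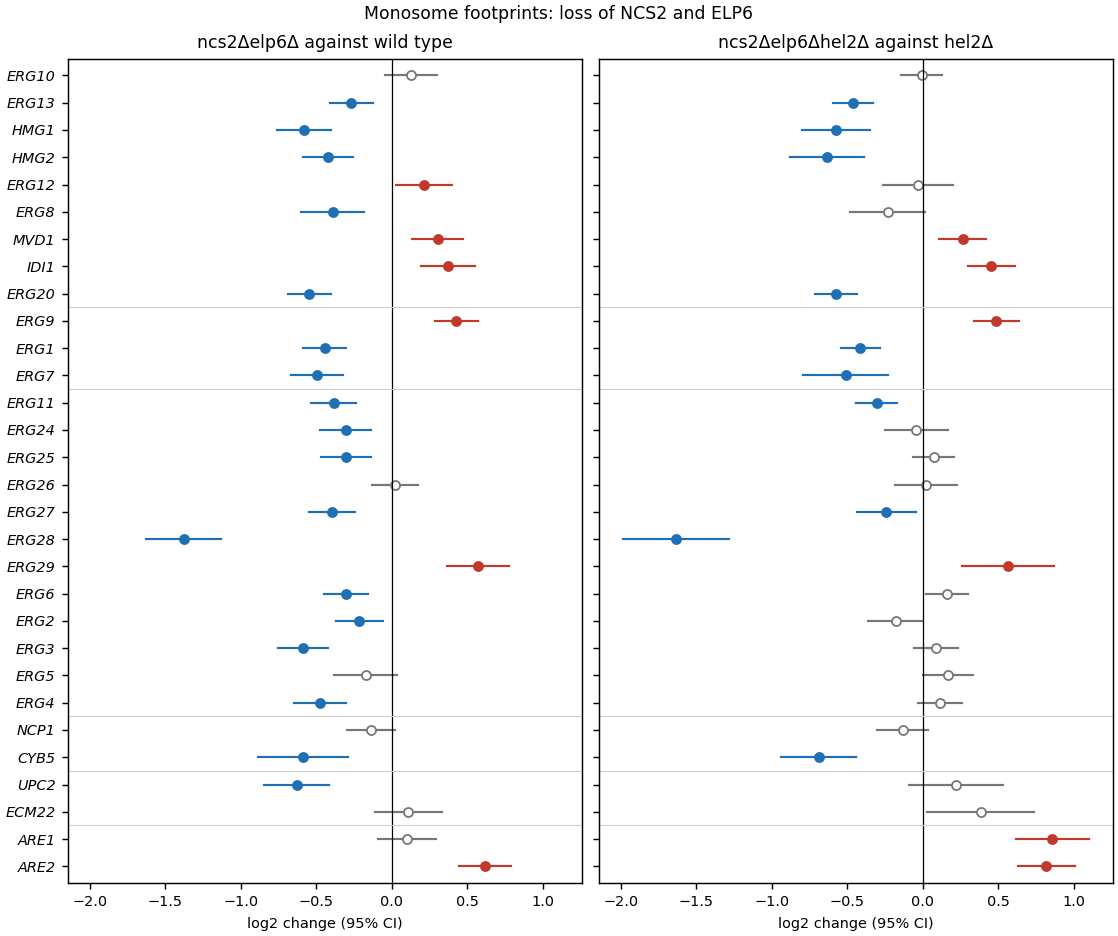
Log2 change of monosome footprints with its 95% confidence interval for 30 members, in pathway order, on loss of NCS2 and ELP6 from wild type (left) and from hel2∆ (right); filled points were called (blue lower, red higher), open points were not, and HES1 is left out because its interval is wide. ERG28 lies farthest left in both panels, at -1.38 and -1.64, and ARE2 is among the farthest right, at 0.62 and 0.82.

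Loss of NCS2 and ELP6 from the hel2∆ strain gave a second set of values from other libraries. In ncs2∆elp6∆hel2∆ against hel2∆, 10 of the 30 members tested fell and 6 rose, where 21.7% of all genes were called lower and 22.5% higher. With library totals the balance turned, to 12 higher and 9 lower, around a median gene at 0.13 (share of all genes called not given). The median member changed by -0.02, so the members as a whole did not sit below the typical gene there. Largest among those that rose were ARE1 (0.86 ± 0.12), ARE2 (0.82 ± 0.09) and ERG29 (0.56 ± 0.15), and among those that fell ERG28, CYB5 (-0.69 ± 0.12) and HMG2. Of the members tested in both comparisons, 22 of 30 changed in the same direction (73.3%, beside 75.5% of 5025 genes in all). All 10 called lower against hel2∆ were among the 18 called lower against wild type (100% and 55.6% of each list), 5 of 6 called higher were shared (83.3% of each), and none was called in opposite directions. For all genes the shared shares were 74.5% and 59.9% of the lower lists and 70.3% and 59.3% of the higher ones.

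The effect of HEL2 was the next comparison. In hel2∆ against wild type, 13 of 31 members fell and none rose, while 17.2% of 5225 genes tested were called lower and 14.7% higher. Median change was -0.21 (log2) for the members and 0.03 for all genes. The absence of higher calls depends on scaling: with library totals 9 members were lower and 7 higher (ERG28, ERG7, HMG1, HMG2, ERG29, ERG12 and IDI1), around a median gene at 0.27. Without wild-type monosome replicate 3, 20 members were called, 2 of them higher. Shares of all genes called in these refits are not given, so the counts show only that the calls depend on the fit.

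ARE1, one of the sterol acyltransferases, fell most, to 43.9 and 50.4 CPM in hel2∆ from 107, 107 and 97.0 CPM in wild type (-1.12 ± 0.11, 2.17-fold, edgeR adjusted p = 1.07e-06). ERG3 fell to 314 and 343 CPM from 623, 679 and 575 CPM (-0.91 ± 0.08, 1.88-fold), and UPC2 to 31.1 and 29.4 CPM from 50.03, 47.3 and 60.6 CPM (-0.79 ± 0.14, 1.73-fold). These 3 genes were named for the largest called changes, so their lack of overlap between the strains is no added evidence. All 3 were lower under library totals too. The others called lower were ERG6 (-0.62), MVD1 (-0.53), ERG1 (-0.52), ERG10 (-0.51), ERG4 (-0.49), NCP1 (-0.46), ERG2 (-0.44), ERG25 (-0.40), ERG9 (-0.38) and ARE2 (-0.32), all log2 changes.

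Deleting HEL2 in the ncs2∆elp6∆ strain lowered 10 of 31 members and raised none, with 12.2% of 5318 genes called lower and 12% higher. ERG10 fell to 461 and 512 CPM from 755, 793 and 784 CPM (-0.67 ± 0.08, 1.59-fold, edgeR adjusted p = 1.65e-05). MVD1 fell to 275 and 249.9 CPM from 378, 375 and 434 CPM (-0.59 ± 0.09) and ERG1 to 459 and 464 CPM from 672, 647 and 667 CPM (-0.51 ± 0.07). No ncs2∆elp6∆hel2∆ library reached the lowest ncs2∆elp6∆ value for any of them. They were named for the largest called changes, so this separation is no added evidence. The 8 members called lower on loss of HEL2 in both backgrounds were ERG1, ERG2, ERG3, ERG9, ERG10, MVD1, NCP1 and ARE1, which is 61.5% of the 13 and 80.0% of the 10. For all genes these shares were 42.3% and 58.6%. The list depends on scaling: with library totals ERG2 and ERG9 were not called in hel2∆ against wild type. ARE1, ERG3 and ERG9 were then not called in ncs2∆elp6∆hel2∆ against ncs2∆elp6∆. In that comparison library totals gave 6 members lower and 3 higher (share of all genes called not given).

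**Figure D3:**
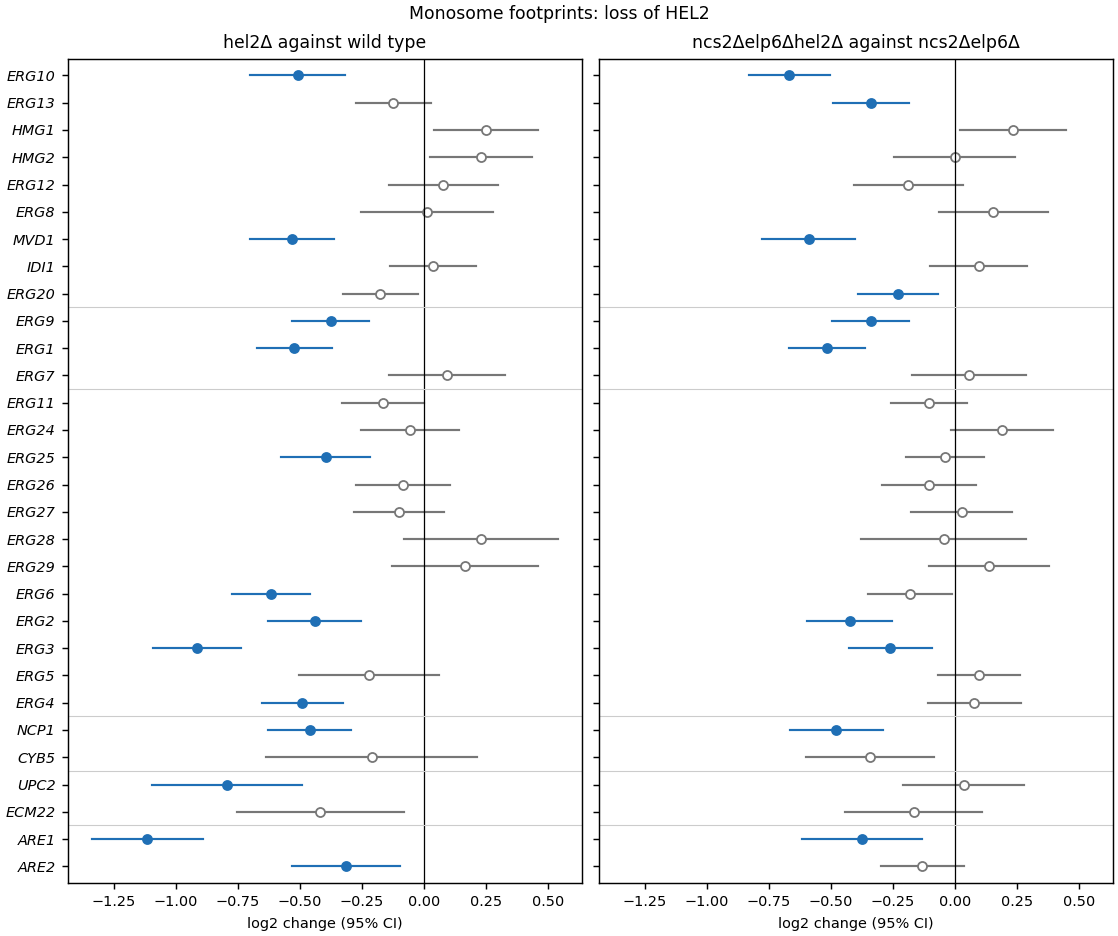
Log2 change of monosome footprints with its 95% confidence interval for 30 members on loss of HEL2 from wild type (left) and from ncs2∆elp6∆ (right), drawn as in the plot of loss of NCS2 and ELP6. All filled points are blue: 13 members on the left, led by ARE1 at -1.12, and 10 on the right, led by ERG10 at -0.67.

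Whether the loss of HEL2 acted differently in the 2 backgrounds was tested directly, as the change in the ncs2∆elp6∆ background minus that in the otherwise wild-type background. For 5 members the difference was called, all positive: UPC2 (0.83 ± 0.19), ARE1 (0.75 ± 0.16), ERG3 (0.66 ± 0.12), ERG4 (0.58 ± 0.12) and ERG6 (0.44 ± 0.11), where 2.99% of 5354 genes were called positive and 2.3% negative. UPC2 and ERG4 were lower in hel2∆ against wild type and not called in ncs2∆elp6∆hel2∆ against ncs2∆elp6∆ (0.03 ± 0.11 and 0.08 ± 0.09). The difference was no longer called for UPC2 after thinning and for ERG6 with library totals. Only 2 of these calls held without hel2∆ monosome replicate 1, 1 (ERG3) without hel2∆ monosome replicate 2 and 2 without ncs2∆elp6∆hel2∆ monosome replicate 2.

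UPC2 and ECM22 are paralogous transcription factors of the pathway. UPC2 stood at 34.4, 31.9 and 36.7 CPM in ncs2∆elp6∆ (-0.63 ± 0.10 against wild type, edgeR adjusted p = 8.20e-05) and 34.7 and 35.2 CPM in ncs2∆elp6∆hel2∆, so all 7 libraries of the deletion strains were below the lowest wild-type one. ECM22 stood at 26.7, 29.9 and 33.6 CPM in wild type, 24.4 and 20.7 in hel2∆, 33.1, 30.0 and 35.2 in ncs2∆elp6∆, and 32.8 and 26.5 in ncs2∆elp6∆hel2∆. These ranges overlapped except in hel2∆, and ECM22 was called in none of the monosome comparisons with the main test (largest change -0.42 ± 0.16, hel2∆ against wild type, edgeR adjusted p = 0.0544). That fall, in the same direction as that of UPC2, was called with RLE factors, with no filter, after thinning and without wild-type monosome replicate 1. With library totals ECM22 was called higher in ncs2∆elp6∆ against wild type and in ncs2∆elp6∆hel2∆ against hel2∆, the latter also without ncs2∆elp6∆hel2∆ monosome replicate 2. Per kilobase, the ratio of UPC2 to ECM22 was 1.41 to 1.67 in wild-type monosome libraries, 1.14 to 1.27 in hel2∆, 0.926 to 0.949 in ncs2∆elp6∆ and 0.941 to 1.19 in ncs2∆elp6∆hel2∆.

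The sterol acyltransferases also shifted against each other. ARE2 had 141, 126 and 112 CPM in wild type, 94.5 and 106 in hel2∆, 191, 199.5 and 194 in ncs2∆elp6∆ and 182 and 173 in ncs2∆elp6∆hel2∆. Every library lacking NCS2 and ELP6 was above every library that has them. ARE2 was named for its large change, so this separation is no added evidence. The ratio of ARE2 to ARE1 per kilobase was 1.09 to 1.25 in wild type and higher in all deletion strains, at 1.99 to 2.05 in hel2∆, 1.44 to 1.80 in ncs2∆elp6∆ and 1.82 to 2.16 in ncs2∆elp6∆hel2∆. The ratio of HMG1 to HMG2 per kilobase was 0.931 to 1.19 in wild type and overlapped that range in each deletion strain (1.01 to 1.17 in hel2∆, 0.912 to 0.990 in ncs2∆elp6∆ and 0.947 to 1.30 in ncs2∆elp6∆hel2∆).

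HES1 was the least covered member, with 19, 13 and 53 monosome counts in wild type, 5 and 12 in hel2∆, 18, 9 and 13 in ncs2∆elp6∆, and 0 and 4 in ncs2∆elp6∆hel2∆. In CPM these were 1.76, 1.31 and 4.30, then 1.88 and 3.27, then 0.69, 0.48 and 0.94, then 0 and 0.81. The fall in ncs2∆elp6∆ against wild type (-1.88 ± 0.44, 3.68-fold, edgeR adjusted p = 3.11e-03) kept its call without wild-type monosome replicate 3, where the gene was highest, at -1.16 (log2). Against hel2∆, HES1 did not pass the filter on low counts, and with at most 3 disome counts per library its disome enrichment is not interpretable.

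Sterol uptake and cell wall genes that yeast induces when oxygen is short, several of them known targets of Upc2, were followed as a separate list. Of its 8 genes 7 were tested in ncs2∆elp6∆ against wild type, and 4 fell and none rose (median -1.85, log2, beside 0.02 for all genes, of which 26.4% were called lower and 26.6% higher). TIR1, a cell wall mannoprotein, had 162.5, 153 and 655 CPM in wild type, 169.5 and 188 in hel2∆, 12.5, 10.9 and 9.64 in ncs2∆elp6∆ and 19.3 and 8.35 in ncs2∆elp6∆hel2∆. The high wild-type value is replicate 3, and it moved the result. The change was -4.88 ± 0.87 (log2, edgeR adjusted p = 0.0104) in ncs2∆elp6∆ against wild type, -3.83 ± 0.10 without that library (edgeR adjusted p = 4.19e-13, list median -1.57, again 4 lower), and -3.84 ± 0.22 (edgeR adjusted p = 1.08e-07) in ncs2∆elp6∆hel2∆ against hel2∆, which does not use it. DAN1, of the same family, had 52, 19 and 107 counts in wild type and at most 5 in any library of the other strains, hel2∆ included, where both libraries had 0. TIR3 fell by 1.53 on the log2 scale in ncs2∆elp6∆hel2∆ against hel2∆, 1 of 2 called among 4 tested. In hel2∆ against wild type and in ncs2∆elp6∆hel2∆ against ncs2∆elp6∆ no gene of the list was called (7 and 6 tested), but without wild-type replicate 3 hel2∆ had 1 higher, TIR1 (0.18 ± 0.07, edgeR adjusted p = 0.0443), and 2 lower.

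Other genes around the pathway were followed in 3 further lists. In ncs2∆elp6∆ against wild type 26.6% of all genes were called higher and 26.4% lower, and calls in the lists also ran both ways. Of 20 steryl ester lipase and sterol transfer genes, 5 rose and 6 fell there, among them YEH1, a steryl ester hydrolase (-1.08 ± 0.11), TGL1, another (-0.65 ± 0.15, or -0.42 ± 0.12 without wild-type monosome replicate 3), and the sterol-binding secreted proteins PRY3 (1.03 ± 0.11) and PRY2 (0.60 ± 0.07). With library totals 8 of the 20 were higher and 2 lower, and TGL1 lost its call. On loss of HEL2 from wild type 6 of the 20 rose and 0 fell (12 and 0 with library totals, 8 and 1 without wild-type replicate 3, beside 14.7% and 17.2% of all genes), led by YSP2 (0.79 ± 0.10) and YSP1 (0.70 ± 0.15). In ncs2∆elp6∆hel2∆ 4 rose and 2 fell against ncs2∆elp6∆ (7 and 1 with library totals, beside 12% and 12.2% of all genes), and 2 rose and 6 fell against hel2∆ (22.5% and 21.7%). Of 9 tested genes that use farnesyl diphosphate for other products, 1 rose and 2 fell in ncs2∆elp6∆, where NUS1, a subunit of the dolichol-making prenyltransferase, had the larger fall (-1.03 ± 0.08). With library totals 4 of these were higher and 1, NUS1, lower. NUS1 also fell in ncs2∆elp6∆hel2∆ against hel2∆ (-0.62 ± 0.13), the only call of 9, beside 2 higher with library totals. Loss of HEL2 raised 2 of them and lowered 1 in wild type, and none was called in the ncs2∆elp6∆ background. Of 9 regulators, 4 rose and 2 fell in ncs2∆elp6∆, including DAP1, a haem-binding partner of Erg11 (0.57 ± 0.10), and SUT2 (-1.07 ± 0.21). DAP1 and SUT2 had the largest changes against hel2∆ too (0.84 ± 0.14 and -1.41 ± 0.32), where 2 rose and 2 fell. Loss of HEL2 from wild type raised 2 regulators and lowered 1, DAP1 (-0.59 ± 0.15), whereas with library totals 6 were higher and none lower. From ncs2∆elp6∆ it raised 1 and lowered 1, again DAP1 (-0.34 ± 0.09), a call lost with library totals.

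Disome libraries showed where footprints of paired ribosomes departed from those of single ones. Disome enrichment is the log2 change in disome counts beyond that in monosome counts. Over the 29 members with at least 10 disome counts in every library, the median log2 ratio of disome to monosome CPM was -0.05 in wild type and -0.06 in ncs2∆elp6∆, beside 0.14 and 0.13 for 3600 genes with the same depth. In hel2∆ and ncs2∆elp6∆hel2∆ it was 0.51 and 0.36 beside 0.18 and 0.15. Members above the median of all genes numbered 10 of 29 in wild type, 11 in ncs2∆elp6∆, 18 in hel2∆ and 16 in ncs2∆elp6∆hel2∆. Within wild type, ERG29 (1.46 ± 0.51, SD, n = 2), ERG27, the keto reductase of demethylation (1.43 ± 0.28), and ERG7 (1.09 ± 0.35) had the highest ratios of these 29. HMG1 (-1.30 ± 0.39), ERG24, a sterol reductase (-0.93 ± 0.57), and ERG4, the reductase of the last step (-0.91 ± 0.09), had the lowest.

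Against wild type, disome enrichment of ncs2∆elp6∆ rose for 2 members and fell for 5 of 31, with 10% of 5389 genes called higher and 8.68% lower. ERG28 rose by 1.06 ± 0.31 (log2, 2.08-fold, edgeR adjusted p = 0.0244): its ratio was 0.83 and -0.02 in wild type and 1.35 and 1.22 in ncs2∆elp6∆. Its disome level itself was not called, at 46.2 and 29.5 CPM in wild type and 30.6 and 29.5 CPM in ncs2∆elp6∆, so the ratio rose as monosome footprints fell. The enrichment call of ERG28 was lost with same-numbered monosome and disome libraries as a block, and without wild-type disome replicate 2. ERG9 rose by 0.65 ± 0.13 (edgeR adjusted p = 2.15e-03), from ratios of -0.15 and 0.02 to 0.47 and 0.64, and here the disome level rose too, from 223 and 255 CPM in wild type to 468 and 523 CPM in ncs2∆elp6∆. In disome libraries fitted alone, a comparison added after the values were seen, ERG9 was the only member of 30 called higher (1.03 ± 0.13, where 12.9% of 4404 genes were), and 10 were lower (15.2% of genes).

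The members that lost enrichment were ERG29 (-1.19 ± 0.29), ERG7 (-0.78 ± 0.22), ERG13 (-0.71 ± 0.12), ERG12 (-0.67 ± 0.20) and ERG10 (-0.42 ± 0.14), of which 3 belong to the mevalonate branch. For ERG29 the ratios were 1.82 and 1.10 in wild type and 0.24 and 0.26 in ncs2∆elp6∆, and for ERG13 0.57 and 0.32 against -0.28 and -0.29. ERG13, ERG7 and ERG10 also fell in disome libraries fitted alone (-1.03 ± 0.11, -1.32 ± 0.24 and -0.34 ± 0.11). The disome levels of ERG29 and ERG12 were not called alone (-0.67 ± 0.31 and -0.51 ± 0.20), while their monosome levels were called higher. ERG29 also lost its call without wild-type disome replicate 1, at -0.70. Without either ncs2∆elp6∆ disome library only ERG9 and ERG13 kept their calls. ERG7 and ERG10 also lost theirs with same-numbered monosome and disome libraries as a block.

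Deleting HEL2 in ncs2∆elp6∆ raised disome enrichment for 11 of 30 members and lowered none, where 8.95% of 5017 genes were called higher and 8.17% lower. The median was 0.35 (log2) for the members and 0.00 for all genes. NCP1, the reductase that feeds electrons to Erg11, Erg5 and Erg1, led with 1.201 ± 0.16 (2.30-fold, edgeR adjusted p = 1.36e-06). Its ratio was -0.57 and -0.92 in ncs2∆elp6∆ and 0.55 and 0.30 in ncs2∆elp6∆hel2∆, from a disome level that rose (0.75 ± 0.13) and a monosome level that fell (-0.48 ± 0.09). ERG10 followed with 0.98 ± 0.12 (ratios of -0.18 and -0.38, then 0.91 and 0.55) and ERG2 with 0.78 ± 0.18 (ratios of -0.89 and -0.33, then 0.33 and 0.15). The rest were ERG7 (0.72), ERG12 (0.70), ERG4 (0.68), ERG3 (0.48), MVD1 (0.46), ERG6 (0.41), ERG1 (0.40) and ERG13 (0.35). For 7 of the 11 the monosome level was called lower (ERG1 and MVD1 among them, whose disome levels alone changed by -0.09 and -0.10, not called), and for 6 of the 11 (ERG4, NCP1, ERG7, ERG6, ERG12 and ERG10) the disome level alone was called higher, where 12.6% of 4341 genes were and 13.7% were lower (1 member, ERG9). With library totals 6 of the 11 were called, and without either ncs2∆elp6∆ disome library 6 members were called (without replicate 2 one of them was ARE2).

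**Figure D4:**
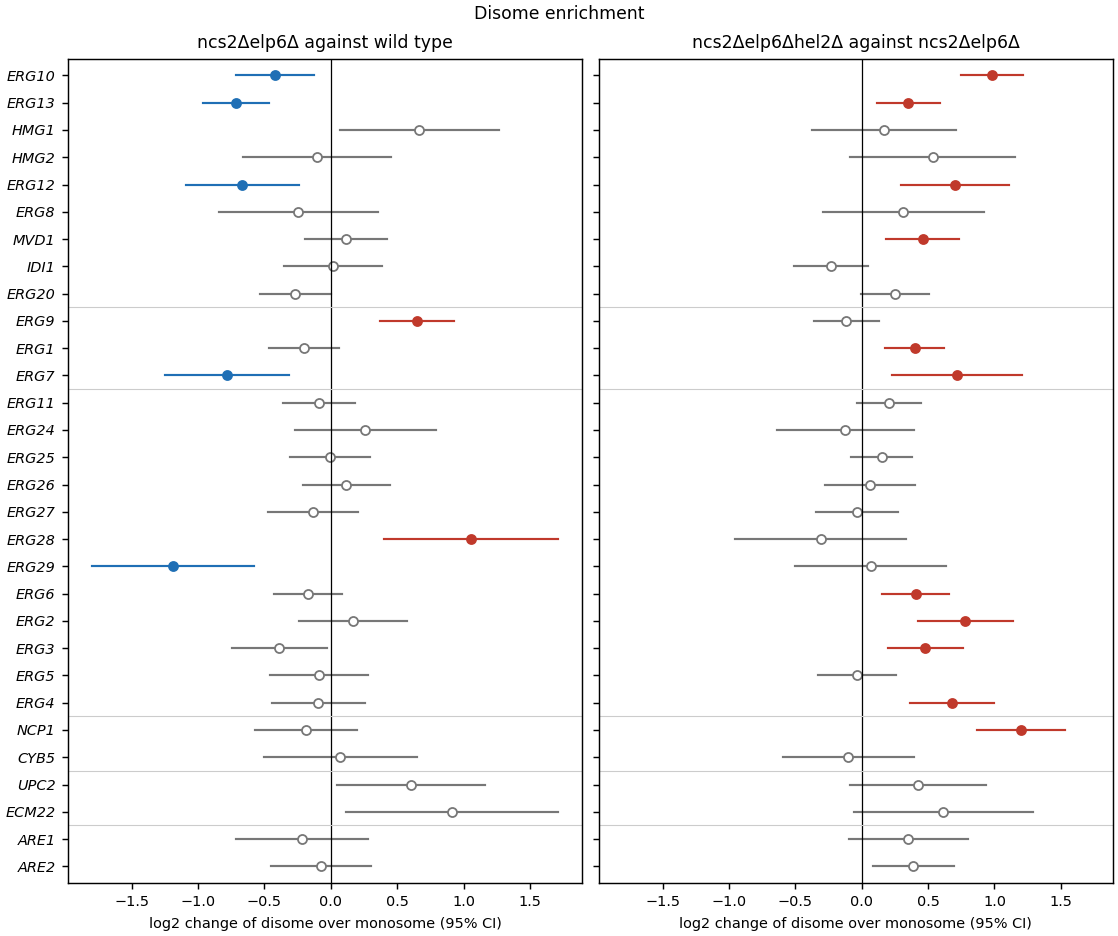
Log2 change of disome over monosome footprints with its 95% confidence interval for the members with a test, HES1 left out, in ncs2∆elp6∆ against wild type (left) and ncs2∆elp6∆hel2∆ against ncs2∆elp6∆ (right), filled where called. On the left ERG28 (1.06) and ERG29 (-1.19) lie at the ends; on the right all 11 filled points are positive, led by NCP1 at 1.201.

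Side by side, ERG7, ERG10, ERG12 and ERG13 lost disome enrichment when wild type and ncs2∆elp6∆ were compared (-0.78, -0.42, -0.67 and -0.71) and gained it in ncs2∆elp6∆hel2∆ against ncs2∆elp6∆ (0.72, 0.98, 0.70 and 0.35). Both comparisons use the ncs2∆elp6∆ libraries, so the opposite signs are not independent. With same-numbered monosome and disome libraries as a block, ERG7 lost its call in both comparisons and ERG10 in the first. Against hel2∆, which shares none of the ncs2∆elp6∆ libraries, none of the 4 was called in ncs2∆elp6∆hel2∆ (0.31 ± 0.24, 0.21 ± 0.16, 0.06 ± 0.19 and -0.42 ± 0.15). For ERG9 and ERG28 the change in enrichment on that loss of HEL2 was -0.12 ± 0.12 and -0.31 ± 0.32, neither called.

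**Figure D5:**
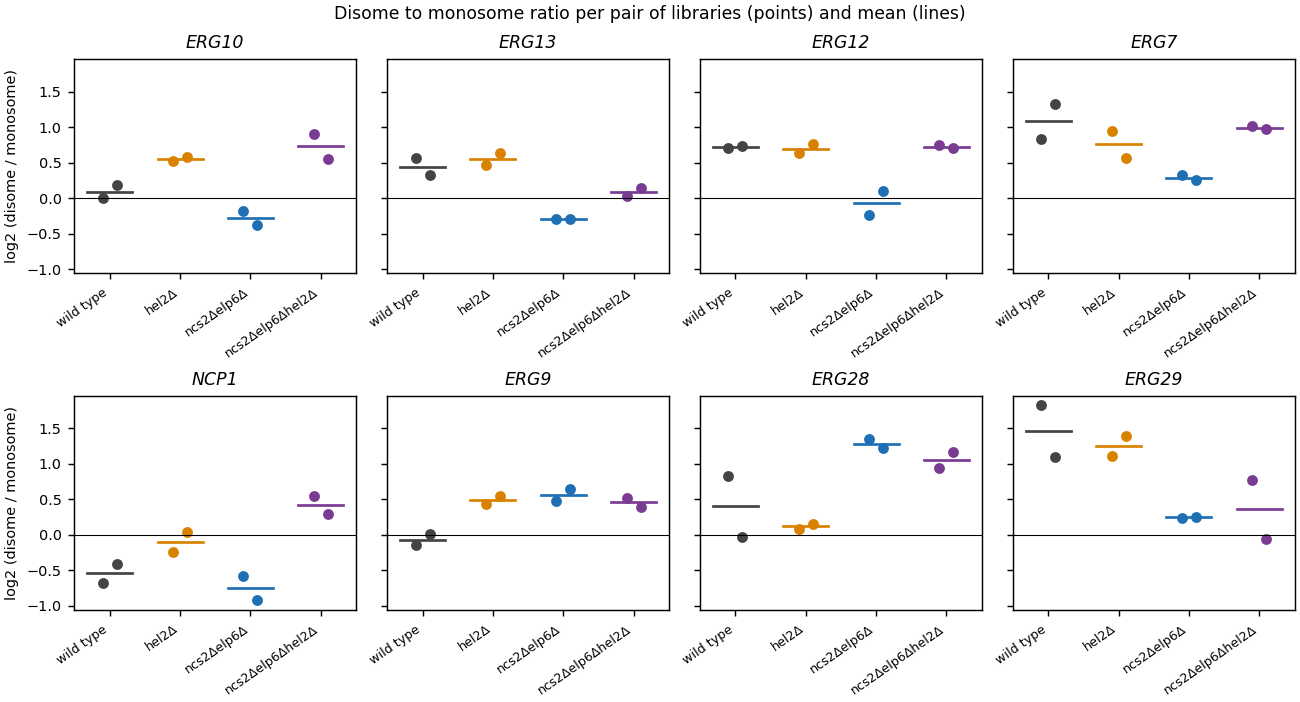
Log2 ratio of disome to monosome CPM in the 2 same-numbered pairs of libraries per strain (points, lines are means) for 8 members. ERG10, ERG13, ERG12, ERG7 and NCP1 had their lowest mean in ncs2∆elp6∆, ERG9 was at -0.15 and 0.02 in wild type and 0.40 to 0.64 in the deletion strains, and ERG29 was highest in wild type and hel2∆.

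In the otherwise wild-type background, loss of HEL2 raised disome enrichment of ERG4 (0.67 ± 0.16, edgeR adjusted p = 0.0229) and ERG6 (0.60 ± 0.15, edgeR adjusted p = 0.0280), 2 of 30 members, with 2.4% of 4999 genes called higher and 2.8% lower. ERG6 had ratios of -0.67 and -0.65 in wild type and 0.05 and 0.04 in hel2∆, and ERG4 had -0.85 and -0.98 and then -0.15 and -0.12. Monosome footprints of both genes fell while no member was called in disome libraries alone, where ERG4 had 212 and 201 CPM in wild type and 241 and 231 CPM in hel2∆. Both calls were lost with library totals and without any of 5 single libraries (wild-type monosome replicates 1 and 2, hel2∆ monosome replicates 1 and 2 and hel2∆ disome replicate 2), which left 0 members called, whereas without wild-type monosome replicate 3 there were 4 and without wild-type disome replicate 2 there were 7. Both genes were also among the 11 called in the ncs2∆elp6∆ background.

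Between the strains without HEL2, loss of NCS2 and ELP6 raised enrichment of ERG2 (0.54 ± 0.17) and NCP1 (0.53 ± 0.16) and lowered that of ERG5, the P450 that places the side-chain double bond (-0.73 ± 0.15), and ERG3 (-0.50 ± 0.15), while 4.57% of 5030 genes were called higher and 4.51% lower. ERG5 had ratios of 1.04 and 0.74 in hel2∆ and 0.11 and 0.10 in ncs2∆elp6∆hel2∆ and held its call in every alternative fit of both library types, whereas the calls of ERG2, NCP1 and ERG3 did not. Leaving out single libraries gave 1 to 7 members: 1 without hel2∆ monosome replicate 1 or 2, ncs2∆elp6∆hel2∆ monosome replicate 2 or ncs2∆elp6∆hel2∆ disome replicate 2, 2 without replicate 1 of ncs2∆elp6∆hel2∆ in either library type, and 7 without either hel2∆ disome library. For the difference in HEL2 effect on enrichment between backgrounds, no member of 30 was called by edgeR, which called 1.54% of 5114 genes positive and 1.86% negative. At an unadjusted p under 0.05 there were 6 members. DESeq2 called 2 (ERG7 and ERG9), and its share of all genes is not given. The largest difference was that of ERG7 (1.11 ± 0.32, edgeR adjusted p = 0.0509). The count became 3 without wild-type disome replicate 1, 2 without wild-type monosome replicate 3 or either hel2∆ disome library, and 1 without wild-type disome replicate 2.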

How the data were processed

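Ribosome footprints of 4 yeast strains were counted per gene in 10 monosome and 8 disome libraries. The authors deposited raw counts per open reading frame: adapters and linker bases were trimmed, non-coding RNA reads were removed with STAR (2.5.3a in the submitters' processing notes), reads mapping uniquely to sacCer3 with at most 1 mismatch in sense were kept with Bowtie (1.2.3), and reading frames were extended by 21 bases. Disome footprints were 56 to 64 bases. Reads shared by near-identical stretches of paralogs are therefore not counted. All 31 members matched the RefSeq R64 table, which gave positions and coding lengths.

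From the deposited counts, the main test was edgeR 4.0.16 (R 4.3.3) quasi-likelihood F test with TMM factors, filterByExpr (minimum count 10) and Benjamini-Hochberg adjustment over all genes tested, called under 0.05. Each fit used only the strains compared. Disome enrichment was the interaction of library type and genotype. SE is the log2 change divided by the square root of F. CPM divides counts by TMM-scaled library size within library type. Log2 ratios use same-numbered libraries, TMM over all 18 and a prior count of 2. The procedure was run on simulated data with planted changes larger than most of those given here, so that run does not cover small changes. Replicates are described as biological, but the labels name no cultures, so p-values measure the spread between these libraries.

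Alternatives were DESeq2 1.42.0, RLE factors, no filter, thinning, blocks, leaving out libraries and, added after the values were seen, library totals and disome libraries alone. Other lists were refitted with library totals and without wild-type monosome replicate 3, also added later. Apart from some fits of disome libraries alone, shares of all genes called in the alternatives are not given. Counts of members or listed genes there show only how far the calls depend on the fit. Same-numbered libraries of different strains did not deviate together (correlations -0.19 to 0.06). With so few libraries per strain, these correlations cannot show whether the numbers pair the libraries. Values of every library are given for HMG1, HMG2, ERG11, UPC2, ECM22, HES1 and up to 3 called members with the largest change per direction. Those called members were picked by their change, so a lack of overlap between their groups is no added evidence. The share of all genes without overlap was not counted. The members and lists were chosen with earlier results of these data known.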

Additional observations from a re-analysis of the deposited data

Results flagged for a closer look

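The change on loss of HEL2 differed between the ncs2∆elp6∆ and the otherwise wild-type background for 5 members, by the edgeR test of the difference itself. It was 0.83 ± 0.19 (log2 ± SE, edgeR adjusted p = 0.0123) for UPC2, 0.75 ± 0.16 (edgeR adjusted p = 0.0108) for ARE1 and 0.66 ± 0.12 (edgeR adjusted p = 2.57e-03) for ERG3. For ERG4 it was 0.58 ± 0.12 (edgeR adjusted p = 8.22e-03) and for ERG6 0.44 ± 0.11 (edgeR adjusted p = 0.0233). All 5 were called lower on loss of HEL2 from wild type. From ncs2∆elp6∆, ARE1 and ERG3 were called lower and UPC2, ERG4 and ERG6 were not called. The difference lost its call after thinning for UPC2, and with library totals and without wild-type monosome replicate 2 for ERG6. Most of these calls also depended on single libraries of the strains without HEL2, as given above.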

How the results depend on the processing

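Numbers of members called changed by more than 1.5 times in these cases. In hel2∆ against wild type (13) the count was 20 with the replicate block and 10 to 20 with 1 library left out. The monosome difference between backgrounds (5) gave 1 to 7 with 1 library left out. For ncs2∆elp6∆ against wild type, disome enrichment (7) gave 4 with same-numbered monosome and disome libraries as a block, 11 for disome libraries alone and 2 to 8 with 1 library left out. In hel2∆ against wild type enrichment (2) gave 4 with DESeq2, 4 with the replicate block, 4 with the culture block, 0 with library totals, 0 for disome libraries alone and 0 to 7 with 1 library left out. In ncs2∆elp6∆hel2∆ against ncs2∆elp6∆ (11) it gave 6 with library totals, 7 for disome libraries alone and 6 to 11 with 1 library left out. Against hel2∆ (4) it gave 1 with DESeq2, 2 with RLE factors, 2 after thinning, 2 with the replicate block, 11 for disome libraries alone and 1 to 7 with 1 library left out. The difference in enrichment between backgrounds (0) gave 2 with DESeq2, 1 with TMM within library type, 1 with library totals and 0 to 3 with 1 library left out. In hel2∆ against wild type the replicate block gained the same 7 members as leaving out wild-type monosome replicate 3. Only wild type has a replicate 3 in that fit, so the block term takes up that library and these are not separate alternatives. The cause of the other shifts was not tested. With the replicate block the other counts were 24, 10, 15 and 5 for the monosome comparisons and 7, 11 and 0 for enrichment. The labels do not say whether the numbers pair the libraries, so a call lost there cannot be read either way. Leaving out 1 library gave 23 to 26 members in ncs2∆elp6∆ against wild type, 7 to 11 in ncs2∆elp6∆hel2∆ against ncs2∆elp6∆ and 12 to 20 against hel2∆. Signs turned for ERG2 in ncs2∆elp6∆ against wild type with library totals, and in disome libraries alone, which measure a level and not a ratio, for ERG28 (-0.37 where enrichment was 1.06), ERG1 and MVD1. The rise of ERG29 against hel2∆ lost its call with DESeq2. Disome totals limit what enrichment can resolve for the thinly covered members, above all ECM22 and HES1.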

Other observations

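Genes of the a-cell type changed with the tRNA modification genes in these MATa strains. All 5 fell in ncs2∆elp6∆ against wild type (26.4% of all genes did), led by BAR1, the protease that degrades alpha-factor (-1.31 ± 0.08, log2 ± SE), and MFA2, an a-factor gene (-0.98 ± 0.12). With library totals, and without wild-type monosome replicate 3, 4 of 5 fell. Against hel2∆, 4 of 5 fell in ncs2∆elp6∆hel2∆ (21.7% of all genes), with MFA2 at -1.56 ± 0.10 and BAR1 at -1.34 ± 0.08. On loss of HEL2 from wild type 4 of 5 rose (14.7% of all genes), led by STE6, the a-factor transporter (0.60 ± 0.07), and 5 of 5 did with library totals or without wild-type monosome replicate 3. From ncs2∆elp6∆ 2 of 5 rose (12% of all genes), with STE6 at 0.68 ± 0.09, and 3 with library totals. Of 4 alpha-cell genes, 2 were tested in ncs2∆elp6∆ against wild type: STE3 rose (1.14 ± 0.31) and SAG1 fell (-1.30 ± 0.41). In hel2∆ against wild type 2 were tested and 0 called.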
